A study of Mus musculus with 24 samples.

Results

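The IGF binding proteins are secreted proteins that hold insulin-like growth factors IGF1 and IGF2 outside the cell. They were followed here through 7 genes, Igfbp1 to Igfbp7, whose transcripts were read on arrays of sorted endothelial cells from mouse aorta and skeletal muscle. The members were chosen by gene family and not by their values, though with earlier results of these data known. Each was found through the accession of its array probes in a RefSeq gene table. Of the 7 genes, 6 had a probe, out of 18539 gene symbols with a probe in all. Igfbp6 had no probe matched by accession and was not analysed here. Igfbp4 and Igfbp5 had 2 probes each and the other 4 genes 1 each, and the brighter probe of a gene stands for it below.

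Galectin-3-deficient mice (KO), which carry a targeted deletion in Lgals3 on a C57BL/6 background, were compared with wild-type C57BL/6 mice (WT). Male mice, aged 8 weeks at the start, ate a high-fat diet with 60% of calories from fat (HFD) or standard chow with 12% for 8 weeks. In each of 3 independent experiments, aortae and leg muscles of the mice of a strain and diet were pooled, 3 mice by the methods and 3 to 4 by the deposited description. Live CD105+/CD45- cells of each tissue pool were sorted, and their amplified RNA was labelled and hybridized to 1 single-colour array. This gave 24 arrays, 3 for each of the 8 groups WT chow, WT HFD, KO chow and KO HFD in aortic and in skeletal muscle endothelium. An array stands for a pool, so the spread between single mice was not measured.

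In the body most IGF circulates bound to IGFBP3 together with an acid-labile subunit, and IGFBP1, made mainly by the liver, falls when insulin rises. IGFBP4 mostly holds IGF back from its receptor until the protease PAPPA, encoded by Pappa, cuts it. IGFBP5 attaches to the extracellular matrix and is also a substrate of PAPPA. IGFBP7 binds IGF weakly, binds insulin too, and is a known product of blood vessel endothelium. IGFBP2 and IGFBP6 bind IGF2 with preference.

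A level below is the log2 of a probe's background-subtracted intensity after division by the upper quartile of all intensities of its array, so that 0 is the level of that quartile and 1 unit is 1 doubling. Levels of different probes are not on a common scale, and those of single genes were not set against each other. The summed levels of marker lists add the intensities of different probes, so the brightest weigh most. They are compared only between arrays. Tests took in every probe that all 3 arrays of some group showed well above background. A difference counts as called where limma's p, adjusted by Benjamini-Hochberg over all probes tested, was under 0.05. The upper quartile lay between 2390 and 5938 over the arrays, and 59.6% to 75.7% of spots were well above background. At 15 probes that separated KO from WT by over 1 log2 on the chow arrays of both tissues, the HFD arrays of experiments 2 and 3 lay where their labels put them. On a scale with WT chow at 0 and KO chow at 1, the HFD arrays of experiment 1 had medians of 0.22 (labelled WT) and 0.39 (labelled KO) in aorta and 0.30 and 0.32 in muscle, between the strains. Lgals3 itself was well above background on 24 of 24 arrays and higher on the KO array in 11 of 12 pairs. Whether its probe lies within the deletion was not analysed, so it checks nothing, and strain below means the strain given in the label. Diet and strain differences of the members, and the diet differences of other genes named, are therefore also given without experiment 1, which was scanned in a session of its own. The methods' t-test was not run without it.

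The genes of the family lie partly side by side. In the gene table Igfbp2 is followed by Igfbp5 on chromosome 1, and Igfbp1 by Igfbp3 on chromosome 11, with no other protein-coding gene between the members of either pair. The largest differences of the family lay between the tissues, in Igfbp3, Igfbp4 and the brighter probe of Igfbp5, so the promoters of these genes are shown. The dimmer Igfbp5 probe showed no such difference. Each sequence is the run of 250 bases just upstream of the RefSeq start (GRCm38.p6), written 5′ to 3′ on the gene's strand. The windows are chr11:7213924-7214173 on the minus strand for Igfbp3, chr11:99040994-99041243 on the plus strand for Igfbp4 and chr1:72874866-72875115 on the minus strand for Igfbp5. Capitals mark any match, on either strand, to 1 of 4 motifs. A TATA box was searched as TATAAA and a GC box as GGGCGG. The core of an insulin response element was searched as CAAAACA and an E-box as CACGTG.
Igfbp3: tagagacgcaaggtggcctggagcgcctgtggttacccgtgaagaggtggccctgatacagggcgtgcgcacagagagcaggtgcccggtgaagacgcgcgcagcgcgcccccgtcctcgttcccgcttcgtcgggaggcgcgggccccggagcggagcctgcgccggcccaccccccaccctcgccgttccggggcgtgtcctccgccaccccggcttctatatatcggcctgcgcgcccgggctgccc
Igfbp4: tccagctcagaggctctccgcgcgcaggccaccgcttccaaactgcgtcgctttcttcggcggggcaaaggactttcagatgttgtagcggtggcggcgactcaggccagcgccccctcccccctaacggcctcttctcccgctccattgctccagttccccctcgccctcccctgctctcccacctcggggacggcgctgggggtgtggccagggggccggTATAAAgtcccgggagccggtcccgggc
Igfbp5: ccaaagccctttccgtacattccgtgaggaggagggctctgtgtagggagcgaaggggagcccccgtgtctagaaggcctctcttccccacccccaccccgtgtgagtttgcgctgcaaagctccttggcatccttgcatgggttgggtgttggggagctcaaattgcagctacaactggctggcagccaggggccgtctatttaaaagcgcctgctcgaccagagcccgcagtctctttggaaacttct
The single match is the TATA box of Igfbp4, which begins at position -28 relative to the start. Of 32851 promoter windows of this length, 12.4% held the TATA box, 32.7% the GC box, 5.56% the insulin response core and 6.02% the E-box. The Igfbp3 window held 32 CG pairs, the Igfbp4 window 22 and the Igfbp5 window 10, against a median of 6 over all windows. The matches describe letters only, and no protein binding was measured.

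Igfbp3, the main carrier of IGF in blood, was lower in aortic than in muscle endothelium in every pool. In WT chow mice its level was 1.86, 2.77 and 2.08 on the aortic arrays of experiments 1, 2 and 3 and 4.04, 3.98 and 4.17 on the muscle arrays. In WT HFD mice the aortic levels were 0.86, 1.69 and 1.36 and the muscle levels 4.37, 4.22 and 3.93. The highest aortic array of all 12 lay 1.03 below the lowest muscle array, so the tissues did not overlap. How many of all probes separate the tissues so, or lie on the same side in every pool, was not counted here or below. Such separation alone sets no member apart. In KO chow mice the levels were 2.56, 2.41 and 2.33 in aorta and 4.69, 4.49 and 4.46 in muscle, and in KO HFD mice 2.02, 1.74 and 1.99 in aorta and 4.03, 3.80 and 4.00 in muscle. The difference between aorta and muscle of the same pool lay between -2.13 and -2.00 in the 6 KO pools and between -3.51 and -1.22 in the 6 WT pools. Over the 4 strain and diet groups, Igfbp3 was 4.62-fold lower in aorta (log2 difference -2.21, SE 0.12, 95% interval -2.47 to -1.95, adjusted p = 2.6e-10), and without experiment 1 the difference was -2.09.

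Igfbp4, the binding protein whose IGF is set free by PAPPA, was higher in aortic endothelium in 12 of 12 pools. Its aortic levels were 2.01, -1.55 and 1.02 in WT chow, 1.85, 0.64 and 1.48 in WT HFD, -0.31, -0.38 and 0.78 in KO chow and 1.95, -0.05 and 1.99 in KO HFD mice. Its muscle levels were -1.87, -2.30 and -1.22 in WT chow, -1.05, -3.04 and -1.80 in WT HFD, -1.18, -2.37 and -1.46 in KO chow and -0.94, -3.89 and -2.86 in KO HFD mice. The tissues overlapped over single arrays because of 1 WT chow array of aorta at -1.55, and within each pool aorta was above muscle by 0.75 to 4.85. The mean difference was 2.78 on the log2 scale, or 6.89-fold (SE 0.42, 95% interval 1.91 to 3.66, adjusted p = 2.7e-05). The dimmer Igfbp4 probe was well above background on 11 of 12 aortic but only 5 of 12 muscle arrays and entered the test through aortic groups alone. Its measured difference was 3.31, and its call is no independent result.

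Igfbp5, which binds to matrix, was read differently by its 2 probes. The brighter probe had aortic levels of 5.64, 4.55 and 4.78 in WT chow, 5.78, 5.49 and 4.73 in WT HFD, 4.53, 4.65 and 4.48 in KO chow and 5.54, 5.87 and 5.06 in KO HFD mice. Its muscle levels were 3.25, 2.27 and 3.09 in WT chow, 4.26, 2.45 and 3.11 in WT HFD, 4.01, 2.61 and 3.33 in KO chow and 4.23, 3.02 and 2.87 in KO HFD mice. All 12 aortic arrays thus lay above all 12 muscle arrays, with a gap of 0.23 between the nearest. The mean difference was 1.89 on the log2 scale (SE 0.24, 95% interval 1.38 to 2.39, adjusted p = 4.5e-06). The dimmer Igfbp5 probe, well above background on all 24 arrays, was higher in aorta in 6 of 12 pools and lower in the other 6. Its mean level was 1.098 in aorta and 1.225 in muscle (difference -0.13, SE 0.29, 95% interval -0.73 to 0.48, adjusted p = 0.73). Both probes carry the same transcript accession, and where each lies in the transcript was not analysed here. The tissue difference of Igfbp5 therefore rests on 1 of its 2 probes.

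**Figure D1:**
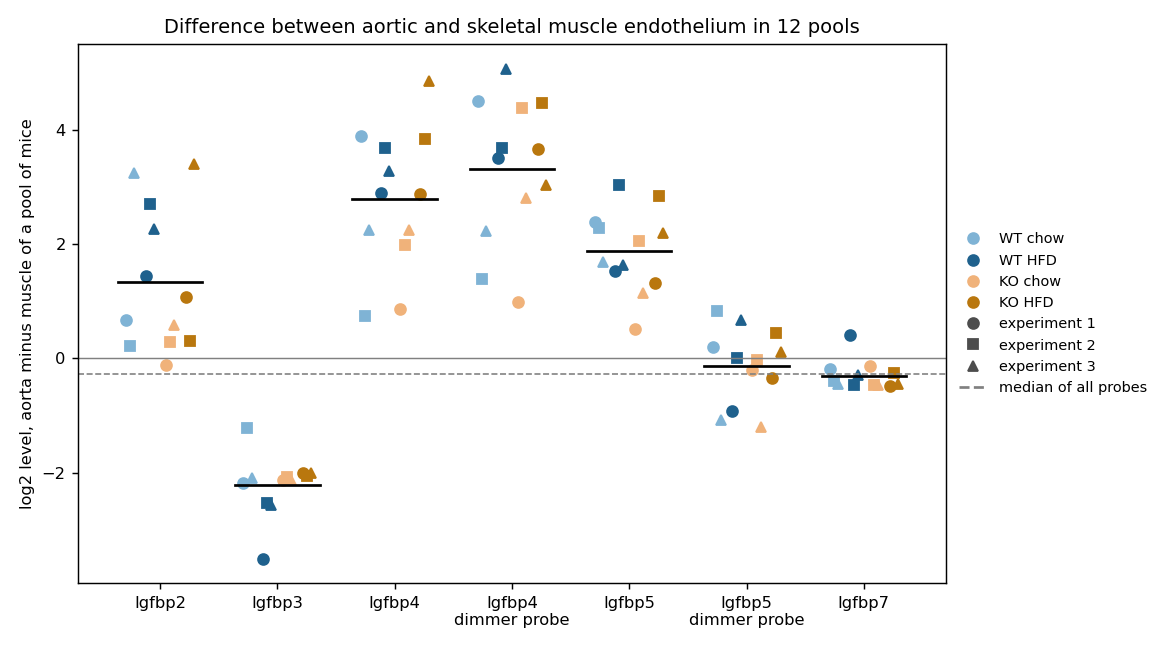
Aorta minus muscle difference of the log2 level within each of 12 pools of mice (y axis), for each probe of the members tested (x axis). Colours give strain and diet, shapes the experiment, black bars the mean of 12 pools and the dashed line the median of all 27387 probes tested (-0.27). Igfbp3 lies below 0 and both Igfbp4 probes above 0 in every pool, and the brighter and dimmer Igfbp5 probes part.

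Igfbp7, the vascular member of the family, ranged from 5.94 to 6.79 over the aortic arrays (median 6.14) and from 5.96 to 7.05 over the muscle arrays (median 6.48). It was lower in aorta in 11 of 12 pools, but by 0.30 on average (difference -0.30, SE 0.13, 95% interval -0.57 to -0.03, adjusted p = 0.064), and it was not called. That difference was close to the shift of all probes: over those tested the median difference was -0.27, and relative to it Igfbp7 differed by -0.03. Relative to the same median, Igfbp3 was lower in aorta by a difference of -1.94, and the brighter probes of Igfbp4 and Igfbp5 were higher by 3.06 and 2.16. With the pool of mice as a block, the Igfbp7 difference of -0.30 was called (adjusted p = 0.023), and after quantile normalization it was -0.02 (adjusted p = 0.89).

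Igfbp2 was dim. It was well above background on 11 of 12 aortic and 8 of 12 muscle arrays, and on none of the 4 muscle arrays of experiment 3. Its aortic levels were -5.16, -5.63 and -2.48 in WT chow, -3.52, -2.99 and -3.58 in WT HFD, -5.63, -5.65 and -5.46 in KO chow and -4.21, -4.94 and -2.38 in KO HFD mice. The muscle levels lay in a narrow range from -6.03 to -4.96. Igfbp2 was higher in aorta in 11 of 12 pools by 1.34 (SE 0.31, adjusted p = 0.0018), a test it entered through aortic groups alone, so that its call is no independent result. The difference was 0.82 without experiment 3 and 0.77 with normexp background correction. Igfbp1, the hepatic and insulin-regulated member, was well above background on 2 of 12 aortic and 5 of 12 muscle arrays and in no group on all 3 arrays, so it was left out of the tests. Its levels lay between -8.60 and -3.46 in aorta and between -9.20 and -4.19 in muscle.

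Of the 4 members well above background on all 24 arrays, Igfbp3 and the brighter probes of Igfbp4 and Igfbp5 were called, and the dimmer Igfbp5 probe and Igfbp7 were not. The background in this contrast was high. Of all probes, 46.1% were called between the tissues, 16.0% higher in aorta and 30.1% higher in muscle, so that a call alone sets no member apart. No slide carried both tissues, and slide and tissue cannot be told apart except through the spread between slides. With the slide as a random block, Igfbp3, Igfbp4 and Igfbp5 stayed called, with adjusted p of 8.3e-08, 0.00049 and 8.6e-05.

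**Figure D2:**
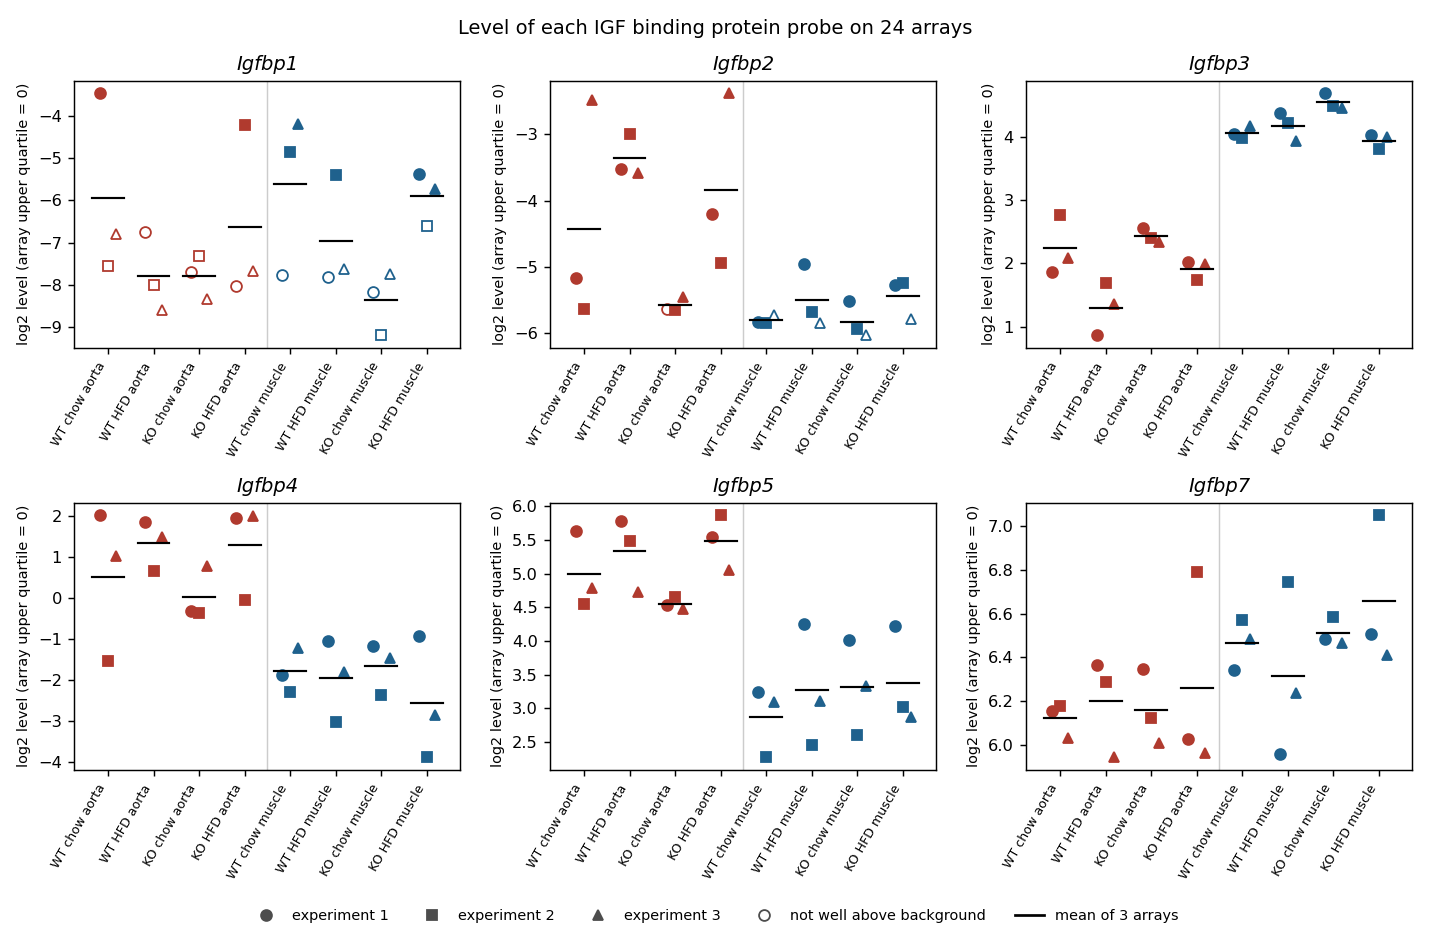
Log2 level (y axis, 0 is the upper quartile of the array, with a scale of its own in each panel) of the brighter or single probe of 6 members on each array, by group (x axis, 3 arrays each, aorta red, muscle blue). Shapes give the experiment, open symbols an array where the probe was not well above background and bars the group mean. Igfbp3 separates the tissues with muscle above, Igfbp5 with aorta above, and Igfbp1 is open on most arrays.

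Markers of other cells moved with the tissue. In these bulk samples fewer cells of a type and less RNA per cell cannot be told apart. Each of the 14 endothelial markers was well above background on at least 1 array of every group, and 13 of them were called lower in aorta (median difference -1.06). Their summed level, on the same log2 scale, ranged from 7.50 to 9.16 in aorta and from 9.13 to 9.79 in muscle. All 8 fibroblast markers were called higher in aorta (median 4.16), with a summed level of 8.29 to 9.42 against 4.58 to 7.81 in muscle. All 9 skeletal muscle fibre markers were called higher in muscle (median difference -6.68). Their summed levels were -0.12 to 2.63 in aorta, where Atp2a1 was not well above background on any array, and 4.23 to 7.16 in muscle. On the 12 aortic arrays Myh1 was well above background on 3 and Pvalb on 5, so the median rests partly on values at background. Markers that entered the test through muscle groups alone, as Atp2a1 did, give no independent result. Of 6 lymphatic markers Lyve1, Reln and Mmrn1 were called higher in aorta and Flt4 lower, all named after their values had been seen. Among the rest, 1 of 8 smooth muscle and 1 of 7 pericyte markers were called higher in aorta and 5 and 4 lower, and 5 of 7 adipocyte markers higher and 2 lower. None of 6 macrophage markers was called in limma (1 had an unadjusted p under 0.05, as 53.4% of all probes did). Of 2 mesothelial and 3 hepatocyte markers, 1 each was called higher in aorta. The mesothelial one was Wt1, well above background on 12 of 12 aortic and 5 of 12 muscle arrays. It entered the test through aortic groups alone, so its call is no independent result. The part of other cells in the tissue differences of Igfbp3, Igfbp4 and Igfbp5 was not tested.

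The members also differed in what they resembled. Over the 24 arrays, the 3 genes with the pattern most like Igfbp3, out of 14146 compared, were Mylpf, Pde8b and Lin7a, with Pearson's r of 0.95, 0.95 and 0.95. Mylpf is a myosin light chain of fast skeletal muscle fibres. For the brighter Igfbp5 probe they were Sult5a1, Ntrk2 and Twist2 (r of 0.97 each). For the brighter Igfbp4 probe the genes were Atrnl1, Dact1 and Sgsm2 (0.94 each). The brighter and dimmer Igfbp5 probes correlated with each other at r of only 0.45 in aorta and 0.46 in muscle. Those of Igfbp4 did so at 0.82 in aorta and 0.52 in muscle, where the dimmer was well above background on 5 of 12 arrays. Which genes the dimmer probes resembled was not tested. All 24 arrays include both tissues. After removal of each tissue's mean the r of Igfbp3 and Mylpf fell from 0.95 to 0.62. That of the brighter Igfbp5 probe and Sult5a1 fell from 0.97 to 0.91. For Igfbp7 the genes were Dynll1, Rpl15 and Dctn3 (0.93, 0.92 and 0.92) and for Igfbp2 Slc6a2, Ltbp1 and Aff2 (0.80, 0.80 and 0.79). These values describe shared patterns over arrays that share tissue, slide and depth of signal.

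After 8 weeks of HFD no member of the family was called in aortic endothelium, but 4 of the 5 tested had an unadjusted p under 0.05. Over both strains, 0 of 5 members passed the adjusted threshold, and neither did most probes (0.0309% were called). At an unadjusted p under 0.05 in limma, the 4 members stood against 15.1% of all probes. The count depends on the probe: the dimmer probes of Igfbp4 and Igfbp5 had unadjusted p of 0.096 and 0.12 in limma. Igfbp3 lay lower on HFD in 6 of 6 pairs of pools. Its log2 fold change [HFD/chow] was -1.003, -1.08 and -0.72 in the 3 WT pairs and -0.54, -0.67 and -0.34 in the 3 KO pairs. Within each strain the HFD and chow arrays did not overlap. How many of all probes separate the diets so, or lie lower in 6 of 6 pairs, was not counted here or below. Such patterns alone therefore set no member apart. The mean change of Igfbp3 over both strains was -0.73 (SE 0.17, 95% interval -1.13 to -0.32, adjusted p = 0.19 in limma). Without experiment 1 it was -0.70 (adjusted p = 0.43).

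The other members tested in aorta lay higher on HFD or showed no such difference. Igfbp5 had log2 fold changes of 0.14, 0.94 and -0.05 in WT and 1.01, 1.22 and 0.58 in KO, with a mean of 0.64 (SE 0.21, adjusted p = 0.26). In KO mice alone the change of this brighter probe was 0.94 (SE 0.30, adjusted p = 0.39) and 0.90 without experiment 1. All 3 KO HFD arrays lay above all 3 KO chow arrays on it. On the dimmer probe the KO change was 0.91 (SE 0.58, adjusted p = 0.58). There the KO HFD levels of 1.42, 2.44 and 1.18 overlapped the KO chow levels of 1.80, 0.51 and 0.02. The dimmer Igfbp5 probe gave 0.74 over both strains (SE 0.41, adjusted p = 0.43), in the same direction as the brighter one, and 1.39 without experiment 1 (adjusted p = 0.33). Igfbp4 had changes of -0.16, 2.20 and 0.46 in WT and 2.26, 0.33 and 1.21 in KO, with a mean of 1.05 (SE 0.38, adjusted p = 0.29), and its dimmer probe a mean of 1.03 (SE 0.53), or 0.78 without experiment 1. Igfbp2 changed by 1.64, 2.64 and -1.10 in WT and 1.43, 0.71 and 3.08 in KO, with a mean of 1.40 (SE 0.54, adjusted p = 0.30). Its chow levels were near background, in KO -5.63 (not well above background), -5.65 and -5.46. Over the alternatives its mean ranged from 0.92 to 1.61. For these 3 genes 5 of 6 pairs lay above 0 each, and 1 WT pair in each below it. Igfbp7 was close to 0, with a mean of 0.09 (SE 0.20, adjusted p = 0.86) and 3 of 6 pairs on either side. Without experiment 1 the means were 0.67 for Igfbp5, 1.05 for Igfbp4, 1.33 for Igfbp2 and 0.16 for Igfbp7, with adjusted p from 0.44 to 0.84.

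**Figure D3:**
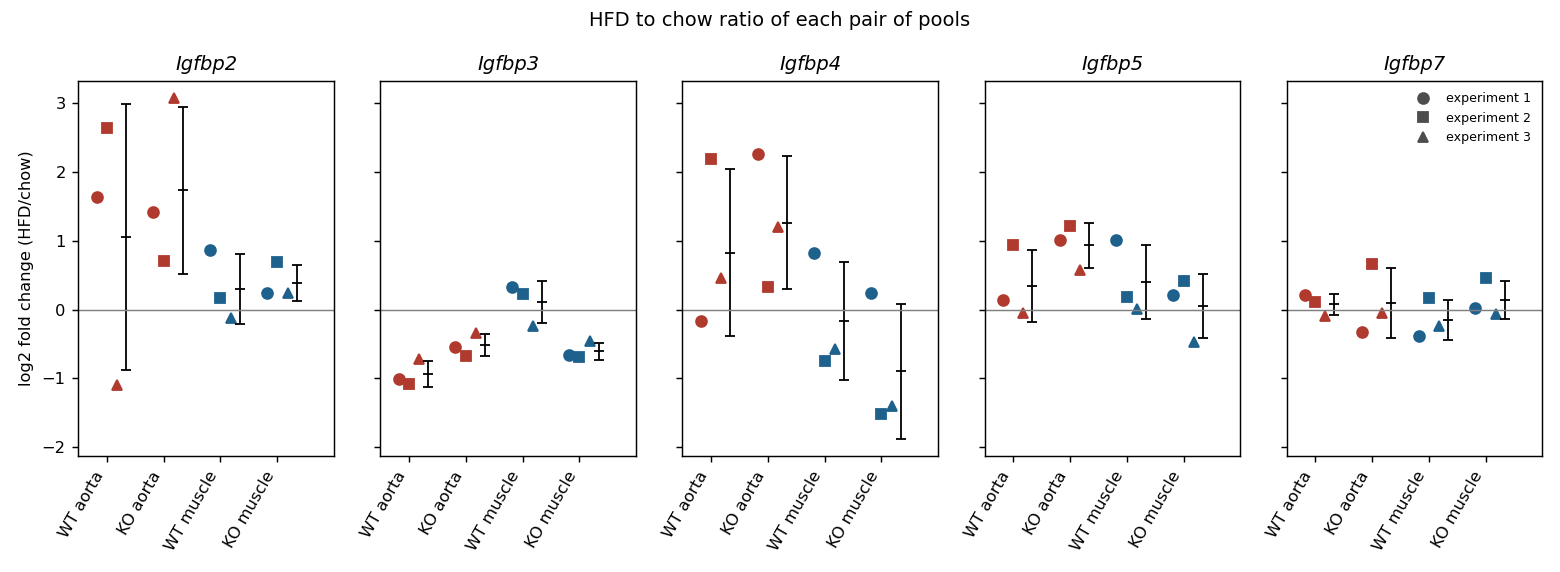
Log2 fold change [HFD/chow] (y axis) of each pair of pools in WT and KO aorta (red) and WT and KO muscle (blue), for 5 members (panels). Shapes give the experiment, and the bar beside each set of 3 pairs its mean and SD. Igfbp3 lies below 0 in all 6 aortic pairs and in the 3 KO muscle pairs, and the points of Igfbp2 and Igfbp4 spread widely.

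By strain, 0 of 5 members were called for HFD in WT aorta and 0 of 5 in KO aorta (0.0% of all probes in each). In limma 1 member had an unadjusted p under 0.05 in WT (Igfbp3), against 5.77% of all probes, and 1 in KO (Igfbp5), against 11.3%. By the methods' t-test on the 3 ratios, 1 and 2 members had p under the same threshold, Igfbp3 in WT and Igfbp3 and Igfbp5 in KO, and none after adjustment. Of all probes, 4.71% and 6.71% had such a p in that test. Igfbp3 changed by -0.93 (SE 0.24, adjusted p = 0.54) in WT and by -0.52 (SE 0.24, adjusted p = 0.47) in KO, and by -0.90 and -0.51 without experiment 1. The difference between these responses was itself tested and was 0.42 (SE 0.34, 95% interval -0.39 to 1.23, adjusted p = 1.00), or 0.39 without experiment 1. No member was called for a difference between KO and WT responses in aorta, where 0.0% of probes were, and none had an unadjusted p under 0.05 (2.62% of probes did).

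Other transcripts moved with HFD in the aortic samples. The adipocyte markers had summed levels of 6.73 to 8.33 on the 6 chow arrays and 3.79 to 5.20 on the 6 HFD arrays, without overlap. All 7 tested lay lower on HFD (median difference -3.51), 6 of them with an unadjusted p under 0.05 and none called in limma, and Lep was not well above background in any aortic group. All 14 endothelial markers lay lower on HFD (median -0.61, 5 with an unadjusted p under 0.05). All 8 fibroblast markers lay higher (median 0.43, 3 with such a p), and so did 6 of 7 pericyte markers (median 0.62, 3 with such a p). Of all probes, 15.1% had such a p in limma over both strains. These counts of markers are to be read against that share. No marker of these lists was called. Without experiment 1 the medians were -3.09 for adipocyte, -0.29 for endothelial (12 of 14 lower), 0.51 for fibroblast and 0.55 for pericyte markers. The part of these cells in the changes of the binding proteins was not tested.

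In muscle endothelium 0 of 4 members were called for HFD over both strains, where 0.288% of probes were, and 0 had an unadjusted p under 0.05 in limma, where 16.4% of probes did. Igfbp3 had log2 fold changes of 0.33, 0.23 and -0.24 in WT and -0.66, -0.69 and -0.46 in KO. In KO mice the HFD arrays lay below the chow arrays without overlap (mean -0.61, SE 0.21, 95% interval -1.11 to -0.10, adjusted p = 0.55 in limma), while the WT mean was 0.11 (SE 0.21, adjusted p = 0.89). The KO response less the WT response was -0.71 (SE 0.30, 95% interval -1.43 to 0.005, adjusted p = 1.00 in limma). An exact 2-sided permutation test of the 3 KO against the 3 WT ratios gave p = 0.1, the smallest this design allows. It gave the same p in aorta, where the difference had the opposite sign, and no result rests on it. In KO muscle all 7 adipocyte markers lay lower on HFD (median -1.17, 4 with an unadjusted p under 0.05), as did 8 of 9 skeletal muscle fibre markers (median -0.55, 0 lower and 1 higher with such a p). Of all probes, 8.49% had such a p in KO muscle in limma. The fibre markers also had a lower response in KO than in WT in 8 of 9 (median -0.50), and the part of these cells was not tested. Without experiment 1 the KO change of Igfbp3 was -0.58, the WT change -0.003 and their difference -0.57 (adjusted p = 1.00).

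Of the other members in muscle, Igfbp4 had log2 fold changes of 0.83, -0.74 and -0.58 in WT and 0.24, -1.52 and -1.40 in KO. Both pairs above 0 came from experiment 1. The mean was -0.53 (SE 0.32, adjusted p = 0.45), and without experiment 1 it was -1.06 (unadjusted p = 0.0045, adjusted p = 0.32 in limma). Igfbp5 changed by 1.01, 0.18 and 0.01 in WT and 0.22, 0.42 and -0.46 in KO (mean 0.23, SE 0.20, adjusted p = 0.61), with a mean of 0.04 without experiment 1. Igfbp7 had a mean change of -0.003 (SE 0.16, adjusted p = 0.99), or 0.08 without experiment 1. Igfbp2 was not tested in muscle, where its 6 ratios lay between -0.12 and 0.86. By strain, 0 of 4 members were called in WT muscle (0.0% of probes) and 0 of 4 in KO muscle (0.00389%), and 0 of 4 for a difference of response (0.0%). In limma 0 members had an unadjusted p under 0.05 in WT muscle (12.1% of probes did), 1 in KO muscle (Igfbp3, 8.49% of probes) and 0 for the difference of response (4.12% of probes). The methods' t-test gave 0 in WT and 1 in KO (Igfbp3), against 8.25% and 5.01% of probes, with none after adjustment. All 8 fibroblast markers in muscle lay higher on HFD (median 1.02, 6 with an unadjusted p under 0.05), with summed levels of 4.58 to 7.13 on chow and 5.19 to 7.81 on HFD arrays. All 5 macrophage markers tested lay higher too (median 1.96, 2 with such a p), while of 7 pericyte markers 5 lay lower and 1 higher with such a p. Without experiment 1 the medians were 0.86 for fibroblast, 1.95 for macrophage and -0.59 for pericyte markers. None of these markers was called, and their part in the muscle values was not tested. Over both strains 16.4% of all probes had such a p.

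The response to HFD was also compared between the tissues. Igfbp4 lay higher on HFD in 5 of 6 aortic pairs and lower on HFD in 4 of 6 muscle pairs, and the aortic response exceeded the muscle response by 1.58 (SE 0.54, 95% interval 0.39 to 2.77, adjusted p = 0.40 in limma). Without experiment 1 this difference was 2.11 (adjusted p = 0.42). The dimmer Igfbp4 probe gave 1.19 (SE 0.71, 95% interval -0.38 to 2.76, unadjusted p = 0.12 in limma), and it was dim in muscle. For Igfbp3 the aortic response was lower than that of muscle by a difference of -0.48 (SE 0.20, adjusted p = 0.49 in limma), or -0.41 without experiment 1. None of 5 members was called, nor was any probe (0.0%), and 2 members had an unadjusted p under 0.05 in limma, against 9.24% of probes.

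Between the strains, no member differed past the threshold. In aorta 0 of 5 members were called for KO against WT over both diets (0.0116% of probes) and 0 had an unadjusted p under 0.05 in limma (3.39% of probes did). In muscle it was 0 of 4 (0.0% of probes), also with 0 at the unadjusted threshold (3.27% of probes). Igfbp3 was 0.41 higher in KO aorta (SE 0.23, 95% interval -0.09 to 0.90, adjusted p = 1.00) and 0.12 higher in KO muscle (SE 0.15, 95% interval -0.21 to 0.46, adjusted p = 1.00). Without experiment 1, these differences were 0.15 and 0.11.

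Ordered by group mean, the levels of Igfbp3 ran from KO chow muscle (4.55 ± 0.13, SD, n = 3) through WT HFD, WT chow and KO HFD muscle (3.94 ± 0.12) to KO chow aorta (2.43 ± 0.12), WT chow aorta (2.24 ± 0.47), KO HFD aorta (1.92 ± 0.16) and WT HFD aorta (1.30 ± 0.42). Neighbours overlapped at 4 of the 7 steps, and the step between the tissues was 1.51. On the brighter probes of Igfbp4 and Igfbp5 the 4 aortic groups came first, WT HFD (1.33 ± 0.62) highest for Igfbp4 and KO HFD (5.49 ± 0.41) highest for Igfbp5. For both genes neighbouring groups of the same tissue overlapped at every step. The aortic and muscle groups met at KO chow aorta, with a step of 1.70 for Igfbp4 and 1.18 for Igfbp5 to the next group. On the dimmer Igfbp5 probe the tissues mixed. Its order began with KO HFD aorta (1.68 ± 0.66) and KO HFD muscle (1.61 ± 0.48). It ended with WT chow muscle (0.70 ± 0.36) and WT chow aorta (0.68 ± 1.03).

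The rest of the IGF system was read through a list of ligands, receptors and regulators of which 11 genes had a probe and 9 were tested between the tissues. Of the 9, 4 were called higher in aorta and 2 lower, Igf2 and Igf1r, with a median difference of -0.06 over the list and -0.27 over all probes. Of all probes, 16.0% were called higher in aorta and 30.1% lower. Igf1, the ligand, was higher in aorta by 3.47 (SE 0.25, adjusted p = 3.7e-09). Pappa, the protease that cuts IGFBP4 and IGFBP5, was well above background on 12 of 12 aortic and 5 of 12 muscle arrays. It entered the test through aortic groups alone, so its measured difference of 3.44 is no independent result although it counts among the 4. Stc2, an inhibitor of PAPPA, was higher by 3.07 (SE 0.26, adjusted p = 2.5e-08), and Irs1, an adaptor of the insulin and IGF receptors, by 2.69 (SE 0.40, adjusted p = 2.3e-05). Igf2 and Igf1r were named here after their values had been seen.

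With HFD, 0 of 9 genes of the list were called in aorta (0.0309% of all probes were) and 0 of 8 in muscle (0.288%). In aorta 4 had an unadjusted p under 0.05 in limma, against 15.1% of all probes. Pappa lay higher on HFD by 2.14 (SE 0.28, adjusted p = 0.079), Igf1 by 1.01 (SE 0.34, adjusted p = 0.26) and Irs1 by 0.93 (SE 0.37, adjusted p = 0.32), and Insr, the insulin receptor, had a difference of -1.02 (SE 0.37, adjusted p = 0.29). In muscle 3 had such a p, against 16.4% of all probes. They were Igf1 at 1.41 (SE 0.26, adjusted p = 0.098), Igf1r at -0.90 (SE 0.20, adjusted p = 0.13) and Insr at -1.08 (SE 0.29, adjusted p = 0.17). Without experiment 1 the aortic differences were 1.84 for Pappa, 1.09 for Igf1, 1.197 for Irs1 and -1.16 for Insr, and those in muscle 1.45 for Igf1, -1.04 for Igf1r and -1.05 for Insr, with adjusted p from 0.32 to 0.48. Pappa was not tested in muscle.

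Relatives that share a domain with the binding proteins were listed as well, and 11 of 12 were tested. Between the tissues 10 were called higher in aorta and 1, Crim1, lower, with a median difference of 2.19. Of all probes, 16.0% were called higher in aorta and 30.1% lower. Ccn5, a secreted matricellular protein, was higher in aorta by 7.34 (SE 0.68), Ccn4 by 5.61 (SE 0.53), the protease Htra4 by 3.11 (SE 0.22) and Kazald1 by 3.05 (SE 0.24), with adjusted p of at most 1.2e-07. In muscle Ccn5 was well above background on 10 and Ccn4 on 9 of 12 arrays, so these 2 differences rest partly on values at background. With HFD none of the 11 was called in either tissue, against 0.0309% of all probes in aorta and 0.288% in muscle. The unadjusted p was under 0.05 for 6 in aorta, led by Ccn4 at 2.36 (SE 0.47, adjusted p = 0.14) and Esm1, an endothelial proteoglycan, at 1.05 (SE 0.27, adjusted p = 0.21). It was under 0.05 for 3 in muscle, led by Ccn5 at 1.92 (SE 0.35, adjusted p = 0.098) and Esm1 at -1.33 (SE 0.24, adjusted p = 0.10). Of all probes, 15.1% in aorta and 16.4% in muscle had such a p. Without experiment 1, Ccn4 and Esm1 differed by 2.47 and 1.1997 in aorta, and Ccn5 and Esm1 by 1.86 and -1.17 in muscle.

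**Figure D4:**
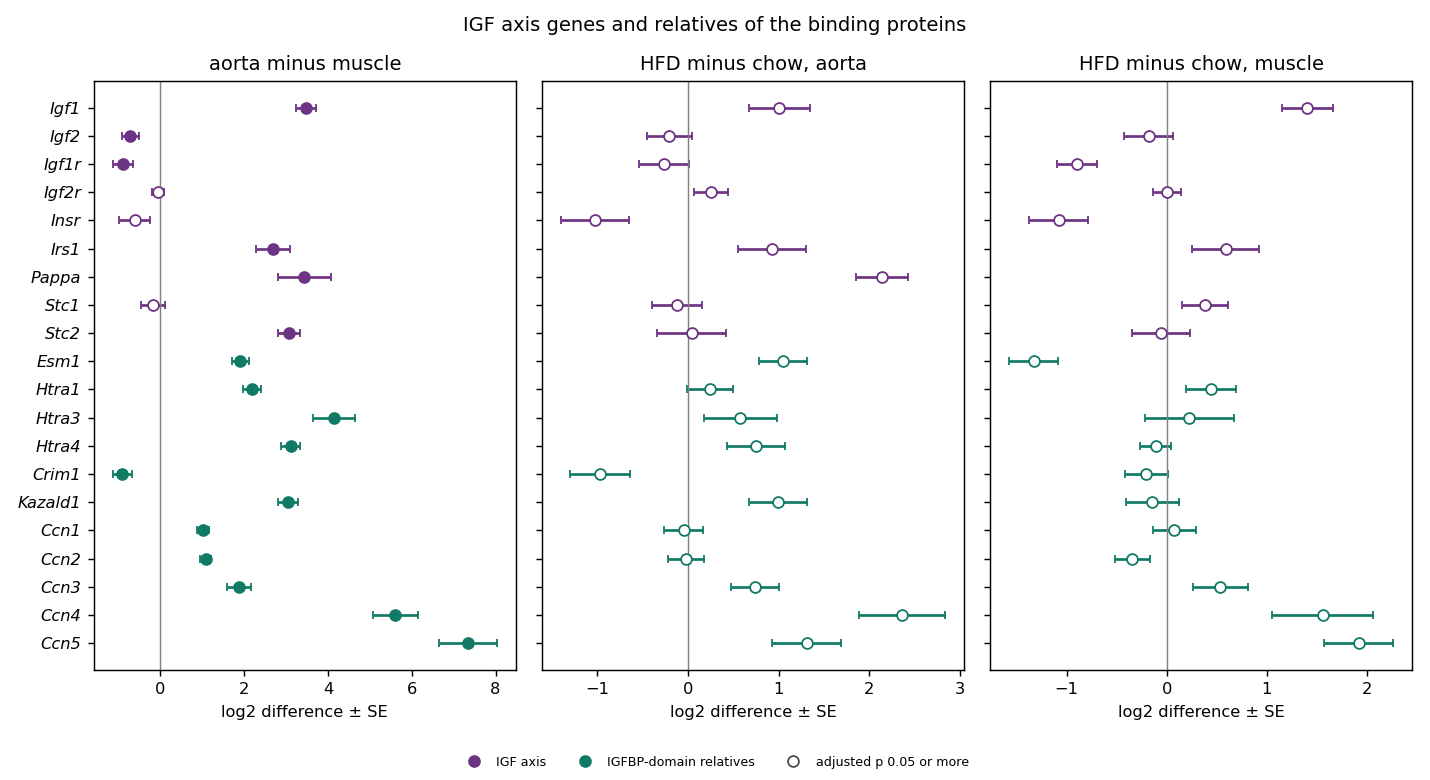
Log2 difference ± SE (x axis) of IGF axis genes (purple) and relatives with an IGFBP-type domain (green) between aorta and muscle and between HFD and chow in each tissue, with open symbols for an adjusted p of 0.05 or more. Pappa, Igf1, Irs1 and Stc2 lie to the aortic side, and every symbol of the diet panels is open.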

How the data were processed

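The arrays were single-colour Agilent Whole Mouse Genome arrays, scanned in 2 sessions. A slide held 4 arrays, those of both strains and diets from 1 tissue in 1 experiment, and there were 6 slides. Per the file headers, Feature Extraction 10.5.1.1 made the processed intensity of each spot by background subtraction and detrending without scaling between arrays, and the submitters' processing notes name version 9.1. The authors also deposited spot and background intensities, marks for spots well above background, saturated or outlying, and a table of log2 values that equal the log2 processed intensity plus 1 constant per array.

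From these, the log2 of the processed intensity over the array's upper quartile was computed, outlier spots were dropped and the spots of each of 41174 probes averaged. Where a probe had several spots on an array, a share of 0.5 of them had to be marked well above background. Accessions matched 27198 probes to symbols of the RefSeq gene table for GRCm38.p6, and no member probe was saturated. The tests took in probes that all arrays of some group marked so, which left 25865 for aorta, 25682 for muscle and 27387 for the tissues together.

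Fits used limma 3.58.1 (R 4.3.3), with a block for each HFD and chow pair of a strain and experiment for diet and group means for strain and tissue. Labels number the independent experiments, and the methods pair the diets within an experiment. Same-numbered HFD and chow arrays of a strain correlated in their deviations at r of 0.009 to 0.37 in aorta and 0.04 to 0.46 in muscle. Their median r was 0.09 in aorta and 0.31 in muscle. Same-numbered arrays of different strains, which share a slide, had a median r of 0.23 in aorta and 0.34 in muscle. The strain fits by group means held no block for this. The fits of tissue, diet in aorta, strain in muscle and diet between tissues were tested on simulated data with known differences and returned them on average. The KO minus WT response was tested only with no difference put in, and diet in muscle uses the code of diet in aorta. The simulated noise was independent between arrays, without shared pairs, pools or slides. Differences put in were larger than any fitted diet difference of a member, so smaller ones and shared slides were not tested. Figures were drawn with matplotlib, and single values compared by exact permutation.

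Named genes were the members on their brightest probe, up to 4 genes of the IGF axis and of the domain relatives per comparison by smallest p, and the 3 genes most like each member by Pearson's r. The lists of markers also held lymphatic, smooth muscle, pericyte, adipocyte, macrophage, mesothelial and hepatocyte genes. The members and lists were chosen with earlier results of these data known. Alternatives were the deposited log2 table, quantile normalization, normexp (offset 50), no or a strict filter on dim probes, each experiment left out, other blocks, the methods' t-test and the other probes. The slide as a random block was added after seeing the data. Precision is limited by how many arrays there are. Igfbp6, whose probe was not found by accession, and protein sequences were not analysed here.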

Additional observations from a re-analysis of the deposited data

How the results depend on the processing

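The calls of members were the same under all alternatives that were run for each comparison, with 2 exceptions for single genes between the tissues. With the dimmer probe in place of the brighter, Igfbp5 had a difference of -0.13 (adjusted p = 0.73) instead of 1.89, and the cause was not tested. Igfbp7 was called at -0.30 with the pool of mice as replicate block (adjusted p = 0.023). Under that block Igfbp2, Igfbp3, Igfbp4 and the brighter probe of Igfbp5 stayed called, with adjusted p of at most 0.0051, and no other call moved with any pairing or block. The tissue difference of Igfbp2 ranged from 0.77 to 1.63, that of Igfbp3 from -2.33 to -1.94 and that of Igfbp4 from 2.60 to 3.31 over the alternatives, including the dimmer Igfbp4 probe. For the brighter Igfbp5 probe the range with an experiment left out was 1.55 to 2.11.

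Signs turned for small differences that were not called. With 1 experiment left out, the mean HFD change of Igfbp7 ranged from -0.0598 to 0.1658 in aorta, below 0 without experiment 2. In muscle it ranged from -0.1653 to 0.0848, above 0 without experiment 1 and without experiment 3, and it was 0.0859 with normexp and 0.0092 with the deposited table. The change of Igfbp3 in WT muscle ranged from -0.0025 without experiment 1 to 0.2823 without experiment 3. Over the alternatives the aortic HFD change of Igfbp3 stayed between -0.82 and -0.65, with adjusted p from 0.14 to 0.54. For Igfbp1, and for Igfbp2 in muscle and on most chow arrays of aorta, signal near background limits what can be read.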
